A study of Mus musculus with 12 samples.

Results

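The genes described here encode 9 factors of nonsense-mediated mRNA decay (NMD): Upf1, Upf2, Upf3a, Upf3b, Smg1, Smg5, Smg6, Smg8 and Smg9. They were chosen by name from the 24100 genes of a count table, and all 9 passed the filter on low counts that left 14263 genes for testing. The question was whether the transcripts of this pathway differ between mouse embryonic fibroblasts (MEFs) with and without RTF2, a replisome protein. WT MEFs were Rtf2+/+ and RTF2-deficient MEFs were Rtf2-/lox, and both had received a Cre retrovirus 72 hrs before RNA was taken, so the recombinase is common to all groups. All cells were immortalized with SV40 large T antigen. Line 1 and line 2 came from different mothers, with WT and RTF2-deficient MEFs of a line being littermates. Each of the 4 groups has 3 libraries. The study describes them as technical replicates, so the p-values below measure the spread among libraries, and the lines are the only biological replicates.

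NMD destroys messages on which translation ends too early. In mammals an exon junction complex lying downstream of the stopping ribosome is the classical signal: UPF3 proteins link that complex through UPF2 to the RNA helicase UPF1, the kinase SMG1 with its partners SMG8 and SMG9 phosphorylates UPF1, and phosphorylated UPF1 draws in the endonuclease SMG6 or the adaptor SMG5. Several transcripts of the NMD factors are themselves substrates of the pathway and rise when it is slowed.

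The deleted allele of Rtf2 is an example of the kind of message this pathway acts on, and for that reason its junction is shown. The Rtf2- allele lacks exon 3. In mm10, exon 2 of the coding transcript lies at chr2:172444647-172444741 on the + strand, exon 3 at chr2:172445327-172445420 and exon 4 at chr2:172446622-172446761. Joining exon 2 to exon 4 in the GENCODE M21 transcript gives the following 30 bases, of which the first 12 belong to exon 2 and the capitals mark the in-frame stop codon.
Rtf2 exon 2 joined to exon 4: tgagcttggcagaatgTGAcagagctcagg
Read from the annotated start, 56 codons precede that stop, against 307 in the full reading frame, and the stop lies 480 bases upstream of the last exon junction of the 9-exon gene. This reading comes from the reference, and which exons the reads covered was not measured.

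Rtf2 itself separated the genotypes as labelled. Its level was 44.8 to 57.8 CPM (counts per 1000000 reads, scaled between libraries by the TMM method) in the 6 WT libraries and 5.44 to 6.66 CPM in the 6 RTF2-deficient libraries, a log2 fold change of -3.01 (95% interval -3.14 to -2.89). Library totals lay between 39360167 and 44695002 counts. The 9 fibroblast markers summed to between 19143 and 31713 CPM, whereas 5 lists of markers of other cell types summed to at most 53.7 CPM. Most of the fibroblast sum was Col1a1, Col1a2, Fn1 and Vim. Col3a1, Pdgfrb and Thy1 were at 153 CPM or more, but Pdgfra was at 3.49 to 21.7 CPM and Dcn at 0.392 to 2.10 CPM. None of the fibroblast markers but 1 of 4 blood markers was at 0 in all libraries. The 3 neural markers summed to 38.2 to 53.7 CPM in line 1 and 8.51 to 31.8 CPM in line 2, nearly all of it Tubb3. The 3 skeletal muscle markers summed to 12.6 to 18.3 CPM in RTF2-deficient line 2 and 3.10 to 9.40 CPM elsewhere. That difference was of Des alone, at 12.5 to 18.3 CPM in RTF2-deficient line 2 and 2.70 to 9.28 CPM elsewhere, while the mean of Myog was lowest there (0.0547 CPM). The 5 epithelial markers, mostly Krt18, summed to 2.06 to 2.36 CPM in WT and 2.77 to 4.27 CPM in RTF2-deficient line 1 without overlap, and to 6.85 to 9.64 and 9.11 to 13.1 CPM in line 2. The 3 endothelial markers, nearly all Kdr, ranged with overlap from 6.78 to 9.22 CPM in WT and 7.76 to 14.0 CPM in RTF2-deficient line 1, and from 7.01 to 10.1 and 8.86 to 15.4 CPM in line 2. The 4 blood markers, mostly Cd68, were at 5.29 to 9.06 CPM in WT line 2 and at most 3.87 CPM elsewhere. The part of these markers in the results was not tested. WT line 2 stood apart in sex-linked genes, with Ddx3y at 91.8 to 106.7 CPM and Xist at no more than 0.132 CPM, while the other 9 libraries had Xist at 102.9 CPM or more and Ddx3y at no more than 0.195 CPM. Interferon-stimulated genes also varied, their mean log2 CPM being 4.87 to 8.91 in WT line 2, 2.37 to 7.19 in RTF2-deficient line 2 and 1.13 to 3.99 in line 1. In bulk RNA a change in the make-up of the culture and a change of RNA per cell cannot be told apart.

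Over both lines, 2 of the 9 factors passed the threshold for a difference between genotypes, in opposite directions. In line 2, which is part of this fit, genotype and sex cannot be told apart. Smg9, a partner of the SMG1 kinase, was lower in RTF2-deficient MEFs, and Smg6, the endonuclease, was higher, a call that did not pass with the replicate number as a block (edgeR adjusted p = 0.0585), a fit that pairs libraries by number also in line 2, where same-numbered libraries did not deviate together. The other 7 did not pass the threshold, which was set at 0.05 for the Benjamini-Hochberg adjusted p of the quasi-likelihood test in edgeR over all 14263 genes. Where the libraries of each group were summed, the fit that takes the lines as replicates, neither Smg9 nor Smg6 passed it. In the fit on the 12 libraries the threshold was passed by 13.2% of the genes tested, 4.98% being higher and 8.18% lower. There 1 member higher and 1 lower is close to the background. The count of members higher depended on the tool: it was 5 of 9 in DESeq2, where 9.09% of all genes were called higher, and 5 of 9 in limma voom, where 10.8% were. The fold changes were small: the members' log2 fold changes (RTF2-deficient over WT) ran from -0.28 to 0.23, none of them reached a second limit of 1 in either direction, and 1.72% of genes passed both limits. The members' median was 0.15, against 0.00 for all genes tested, with 6 members above 0 and 3 below. At an unadjusted p under 0.05 there were 5 members higher and 1 lower, where 28.5% of all genes reached that level and 31.3% of the 6418 genes with mean levels in the members' range of 17.7 to 144.3 CPM did. The levels of the 6 WT and the 6 RTF2-deficient libraries did not overlap for Smg9 and Smg6, which 5.97% of all tested genes also showed.

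**Figure D1:**
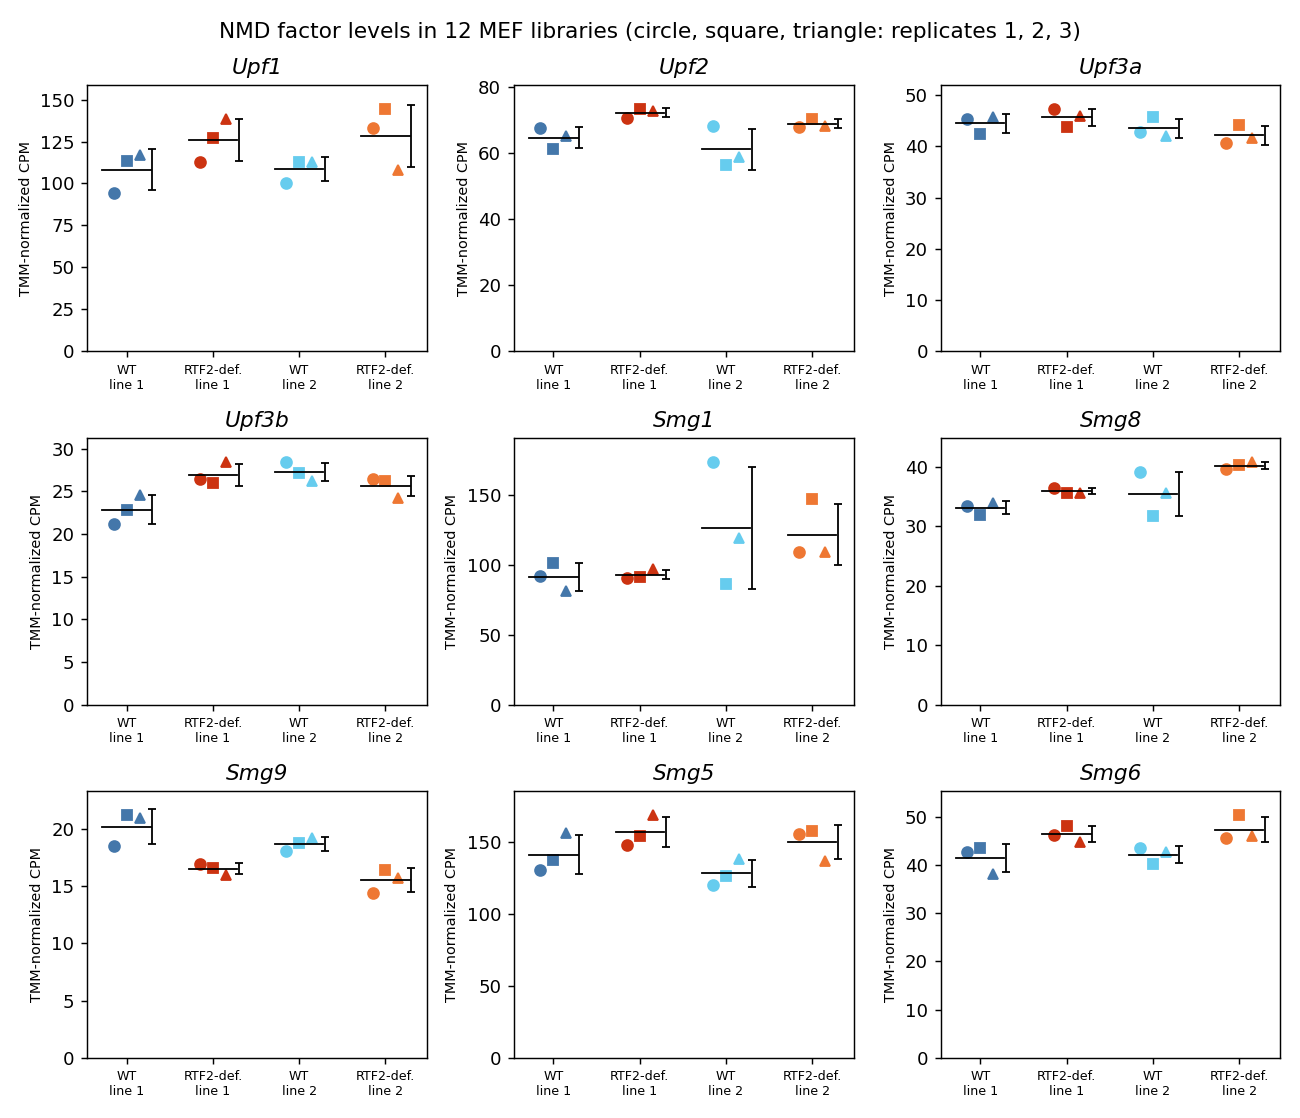
Levels of the 9 NMD factors in each of the 12 libraries as TMM-normalized CPM, with the group mean as a horizontal line, the SD of 3 libraries as an error bar and each axis starting at 0. All RTF2-deficient libraries lie below all WT libraries for Smg9 (14.4 to 16.9 against 18.0 to 21.2 CPM) and above them for Smg6 (44.8 to 50.3 against 38.2 to 43.5 CPM), and the 3 libraries of WT line 2 are widely spread for Smg1.

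Upf1, the ATP-dependent RNA helicase at the centre of the pathway, lies on chromosome 8 from 70331493 to 70353423 (GRCm38) in 24 exons. Its level was 94.4, 113.4 and 116.9 CPM in WT line 1 and 112.9, 126.9 and 138.2 CPM in RTF2-deficient line 1. In line 2 it was 100.5, 112.9 and 112.6 CPM in WT and 132.9, 144.3 and 108.1 CPM in RTF2-deficient MEFs. The means of both deficient groups were above those of their WT, but the libraries overlapped, since RTF2-deficient line 1 replicate 1 and RTF2-deficient line 2 replicate 3 lay within the range of the WT libraries. The log2 fold change of Upf1 was 0.23 (95% interval 0.05 to 0.41), the most positive among the members, and edgeR gave it an adjusted p of 0.0898. Without RTF2-deficient line 2 replicate 3 it was 0.29 and the adjusted p 0.0296, but leaving out RTF2-deficient line 2 replicate 2 gave 0.19 and 0.209. With the interferon score as an added term it was 0.12 (adjusted p = 0.264). Exons of Upf1 share 68 bases with Cers1 and 63 with Gdf1 on the other strand, 1.47% and 1.36% of its exonic bases, and whether the counting used strand is not given in the sources used here.

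Upf2, the scaffold between UPF1 and the UPF3 proteins, lies on chromosome 2 from 5951447 to 6056703. It was at 67.6, 61.2 and 65.1 CPM in WT line 1 and at 70.6, 73.2 and 72.7 CPM in RTF2-deficient line 1. In line 2 the WT libraries had 68.2, 56.4 and 58.7 CPM and the RTF2-deficient libraries 67.8, 70.4 and 68.2 CPM. Within line 1 the genotypes were separate, and in line 2 they met only through WT replicate 1. The log2 fold change of 0.17 (95% interval 0.05 to 0.28) just missed the threshold in edgeR (adjusted p = 0.0530). Leaving out WT line 2 replicate 1 gave 0.21 with an adjusted p of 0.0104, and leaving out WT line 1 replicate 1 gave 0.19 with 0.0399. Over all 12 such fits the range was 0.14 to 0.21, with adjusted p up to 0.121. Among 9 other alternatives Upf2 passed in 5 (adjusted p from 0.0115 to 0.245), which is 1 more than Smg6 did, and one of them was the added interferon score (0.21, adjusted p = 0.0229).

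Upf3a and Upf3b are paralogs that bind the exon junction complex. Upf3a (chromosome 8 from 13785055 to 13798723) had the most even levels of all members, between 40.6 and 47.3 CPM in the 12 libraries, and its group means were 44.5 ± 1.78 (SD, n = 3) and 45.7 ± 1.72 CPM in WT and RTF2-deficient line 1 and 43.5 ± 1.86 and 42.2 ± 1.87 CPM in line 2. Its log2 fold change was -0.0047 (95% interval -0.11 to 0.10), and its sign turned with RLE scaling. Upf3b, which lies on the X chromosome from 37091678 to 37110471, had other levels in the lines. It was at 21.1, 22.7 and 24.6 CPM in WT line 1 and at 26.4, 25.9 and 28.4 CPM in RTF2-deficient line 1, with no overlap. In line 2 it was at 28.4, 27.1 and 26.2 CPM in WT and at 26.4, 26.2 and 24.3 CPM in RTF2-deficient MEFs. The WT libraries of line 1 included the lowest values, but the highest of them lay just above the lowest of RTF2-deficient line 2, and the other 3 groups overlapped each other.

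The effect of genotype on Upf3b was 0.24 in line 1 (95% interval 0.07 to 0.41) and -0.09 in line 2 (-0.26 to 0.08), and their difference was -0.33 (95% interval -0.57 to -0.09, edgeR adjusted p = 0.295). The effect in line 2 was -0.0348 without RTF2-deficient line 2 replicate 3. That difference between lines did not pass the threshold, nor did that of any other member, in a comparison that 1.29% of genes passed. Between the WT lines Upf3b was higher in line 2 by 0.26 on the log2 scale (edgeR adjusted p = 0.0504). The WT lines also differ in the Xist and Ddx3y levels given above, and line, embryo and sex cannot be told apart in that comparison. In line 2 the WT libraries had Ddx3y and hardly any Xist and the RTF2-deficient libraries the reverse. Genotype and sex therefore cannot be told apart in the effects of line 2 or in the difference between the lines, for this X-linked gene or any other. Effects over both lines, with the calls of Smg9 and Smg6, draw on line 2 and share this limit. In line 1 both genotypes had Xist, and neither Smg9 nor Smg6 passed there (edgeR adjusted p = 0.0942 and 0.353). As a measure that does not depend on scaling between libraries, the log2 ratio of Upf3a to Upf3b counts was 0.97 ± 0.117 (SD, n = 3) in WT line 1, 0.76 ± 0.0730 in RTF2-deficient line 1, 0.68 ± 0.0779 in WT line 2 and 0.72 ± 0.0851 in RTF2-deficient line 2. Its difference between genotypes averaged -0.08, made up of -0.20 in line 1 and 0.04 in line 2 (two-sided exact permutation test within lines, p = 0.235, the smallest possible being 0.005). With each library left out it ranged from -0.10 to -0.0461, the latter without WT line 1 replicate 1.

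Smg9 (chromosome 7 from 24397517 to 24422777, 14 exons) showed the clearest difference of the 9. It was at 18.5, 21.2 and 20.9 CPM in WT line 1 and at 16.9, 16.6 and 15.99 CPM in RTF2-deficient line 1. In line 2 its values were 18.0, 18.7 and 19.2 CPM in WT and 14.4, 16.4 and 15.7 CPM in RTF2-deficient MEFs, from 597 to 868 reads a library over all groups. Every RTF2-deficient library of either line was below every WT library. The log2 fold change was -0.28 (standard error 0.0555, 95% interval -0.40 to -0.16, edgeR adjusted p = 0.00648), or 0.824 times the WT level. The effect was of like size in both lines, -0.29 in line 1 and -0.27 in line 2, and each line's own adjusted p missed the threshold, at 0.0942 and 0.0558 in the layout of 4 groups. Smg9 passed the threshold with each of the 12 libraries left out in turn (adjusted p from 0.00684 to 0.0223) and in 8 of 9 other alternatives. It lost the call only where the libraries of each group were summed (-0.28, edgeR adjusted p = 0.204), the fit that takes the lines as replicates.

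Neither of the other members of the kinase complex passed the threshold. Smg8 (chromosome 11 from 87077732 to 87086777) was at 33.4, 32.0 and 34.0 CPM in WT line 1 and at 36.5, 35.7 and 35.6 CPM in RTF2-deficient line 1, and at 39.1, 31.7 and 35.6 CPM in WT line 2 and 39.6, 40.3 and 40.8 CPM in RTF2-deficient line 2. Within each line the RTF2-deficient libraries were all above the WT libraries, while the ranges of the lines together overlapped. The share of all genes separated within a line, as Smg8 was here and Upf2 and Upf3b were in line 1, was not counted. Its log2 fold change was 0.15 (95% interval 0.04 to 0.26, edgeR adjusted p = 0.0835), and 0.19 with an adjusted p of 0.0345 without WT line 2 replicate 1, in a range of 0.11 to 0.19 with adjusted p up to 0.158 over the 12 fits with a library left out. It passed in 3 of 9 other alternatives, among them the added interferon score (0.19, adjusted p = 0.0320). The ratio of Smg8 to Smg9 counts, looked at after these values were seen and not tested, was 1.51 to 1.81 in WT line 1 and 2.15 to 2.23 in RTF2-deficient line 1, and 1.69 to 2.16 in WT line 2 and 2.45 to 2.76 in RTF2-deficient line 2.

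Smg1, the kinase itself, is the longest of the transcripts, with 15557 bases in 63 exons on chromosome 7 from 118131308 to 118244437. Line 1 had 92.1, 101.4 and 81.4 CPM in WT and 90.7, 91.7 and 97.1 CPM in RTF2-deficient MEFs. Line 2 had 173.6, 86.6 and 119.4 CPM in WT and 109, 147.2 and 109 CPM in RTF2-deficient MEFs. The genotypes overlapped in both lines, and the libraries of WT line 2 differed by a coefficient of variation of 34.7%, against 3.68% to 18.1% in the other groups. The log2 fold change was -0.02 with a wide interval of -0.33 to 0.30. With line 1 fitted alone it was 0.02 with a standard error of 0.0910, against 0.143 over both lines. In WT line 2 the order of the Smg1 values was that of the interferon scores (8.91, 4.87 and 6.70 in replicates 1, 2 and 3), whereas in RTF2-deficient line 2 the scores were 2.37, 3.65 and 7.19, and a part of these genes in the Smg1 values was not tested.

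Smg6, the endonuclease that cuts the message near the early stop, lies on chromosome 11 from 74925854 to 75164448. Its values were 42.7, 43.5 and 38.2 CPM in WT line 1 and 46.3, 48.1 and 44.8 CPM in RTF2-deficient line 1. In line 2 they were 43.5, 40.2 and 42.7 CPM in WT and 45.7, 50.3 and 46.0 CPM in RTF2-deficient MEFs. No RTF2-deficient library reached down to a WT library. Smg6 rose by 0.16 on the log2 scale (standard error 0.0492, 95% interval 0.06 to 0.27, edgeR adjusted p = 0.0465), a gain of 12.1% over the WT level, and by 0.16 in line 1 and 0.17 in line 2. The adjusted p was close to the threshold and passed it in 4 of 12 fits with a library left out, namely without WT line 1 replicate 1 or 2, without WT line 2 replicate 1 and in the absence of RTF2-deficient line 2 replicate 3, over a range of 0.0427 to 0.107. Among 9 other alternatives it passed in 4 (adjusted p from 0.00679 to 0.253), and the replicate block and the added interferon score (0.17, adjusted p = 0.0601) were among those in which it did not. Smg6 shares 126 exonic bases with Srr and 117 with the antisense gene Gm12333 on the other strand, 2.15% and 2.0% of its exonic bases.

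Smg5 (chromosome 3 from 88336259 to 88362338), the adaptor of the other decay route, had 130.5, 137.6 and 156.5 CPM in WT line 1 and 148.1, 154.2 and 168.7 CPM in RTF2-deficient line 1. Its values in line 2 were 120.3, 126.4 and 138.4 CPM in WT and 155.8, 158.04 and 136.7 CPM in RTF2-deficient MEFs. The group means were higher with RTF2 deficiency in both lines, with overlapping libraries. A log2 fold change of 0.19 (95% interval 0.05 to 0.33) came with an edgeR adjusted p of 0.0743, which became 0.0335 without WT line 1 replicate 3 and 0.0452 on leaving out RTF2-deficient line 2 replicate 3, but 0.176 without RTF2-deficient line 2 replicate 2. With the interferon score as an added term Smg5 was at 0.12 (adjusted p = 0.202). The log2 ratio of Smg6 to Smg5 counts differed between genotypes by -0.02, that is by 0.01 in line 1 and -0.06 in line 2 (two-sided exact permutation test within lines, p = 0.785).

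**Figure D2:**
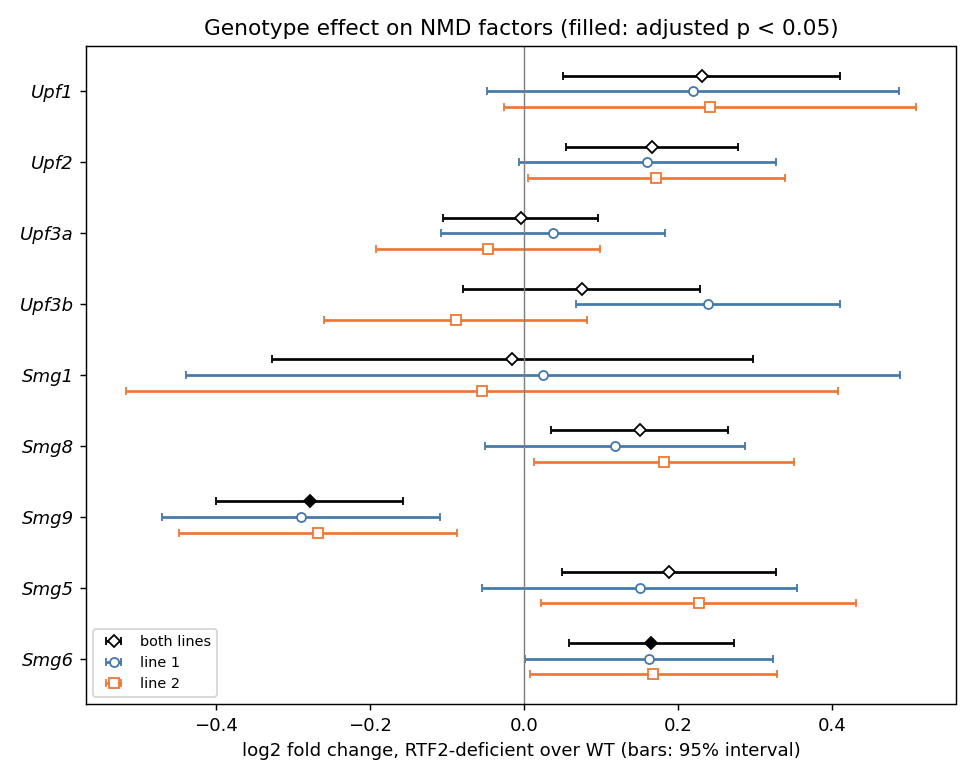
Log2 fold change of each NMD factor, RTF2-deficient over WT, over both lines (diamonds), in line 1 (circles) and in line 2 (squares), with 95% intervals from edgeR and filled symbols at an adjusted p under 0.05. Smg9 (-0.28) and Smg6 (0.16) are filled over both lines, no symbol of a single line is, and Upf3b is the member whose effects in the lines lie furthest apart (0.24 and -0.09).

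Taken line by line, none of the 9 factors passed the threshold in line 1, where 3.20% of genes did, nor in line 2, where 12.5% did. At an unadjusted p under 0.05, 2 members were higher and 1 lower in line 1 and 4 were higher and 1 lower in line 2, where 13.9% and 27.8% of all genes reached that level. DESeq2, applied to the same layout, called Smg9 lower in each line (adjusted p = 0.0253 in line 1 and 0.0242 in line 2) and no member higher, and it called 5.97% and 18.1% of all genes there. The result in line 1 depended on the pairing of its libraries. WT and RTF2-deficient libraries of line 1 with the same replicate number deviated together from their group means, with correlations across genes of 0.430 to 0.625. A fit of line 1 alone with the replicate number as a block was chosen after the data were seen, and was not made for line 2 alone. In it 6 of the 9 members passed, where 28.1% of all genes did. Upf1 was then at 0.22 (adjusted p = 0.00254), Upf3b at 0.24 (0.00801), Smg5 at 0.15 (0.00946), Smg6 at 0.16 (0.0244) and Upf2 at 0.16 (0.0343), all higher, and Smg9 was lower at -0.29 (0.0105). Smg8 (0.12, adjusted p = 0.0732), Upf3a and Smg1 stayed short of the threshold in that edgeR fit. With line 1 alone and without the block, edgeR called none of the members.

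In line 2 the libraries with the same number did not deviate together, their correlations being -0.587 to 0.170. Each library of RTF2-deficient line 2 correlated best with a library of another number in each of the other groups, at 0.334 to 0.654, and what the replicate number stands for is not given in the sources used here. Between the WT lines themselves none of the 9 members passed the threshold, in a comparison that 14.0% of genes passed. The members' log2 differences there, WT line 2 over WT line 1, ran from -0.14 for Smg5 to 0.46 for Smg1 (95% interval 0.00 to 0.93, edgeR adjusted p = 0.177), and 2 members, Upf3b and Smg1, had an unadjusted p under 0.05, as 28.1% of all genes did. DESeq2 called Upf3b there (0.25, adjusted p = 0.0209) among 19.3% of all genes. Without WT line 2 replicate 2 the difference of Smg1 was 0.67 (adjusted p = 0.0278), whereas without WT line 2 replicate 1 it was 0.15 (0.631). Without WT line 1 replicate 3 the difference of Upf3b was 0.30 (0.0473), in a range of 0.19 to 0.30 with adjusted p up to 0.195. These WT libraries also enter the comparisons of genotype.

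Levels of different genes can be set side by side only after scaling by transcript length. Smg5 had the highest mean level, 32.4 CPM per kilobase, followed by Upf1 at 25.5 and Upf3a at 21.4. A gap separated these from Upf2 at 12.9, Smg8 at 11.2 and Upf3b at 10.9, and the lowest were Smg9 at 7.90, Smg6 at 7.58 and Smg1 at 6.96 CPM per kilobase. Upf3a and Upf2 were the only neighbours in this order whose ranges over the 12 libraries did not overlap. Within libraries, Smg5 was above Upf1, Upf2 above Smg8 and Upf3b above Smg9 in 12 of 12, and Upf1 was above Upf3a in 11. Smg8 and Upf3b kept their order in 9 of 12 libraries, Smg6 and Smg1 also in 9, and Smg9 and Smg6 in 6, so these neighbours were not separate. The 6 libraries in which Smg9 stood above Smg6 were the WT libraries, as the values per kilobase in the plot by library show.

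**Figure D3:**
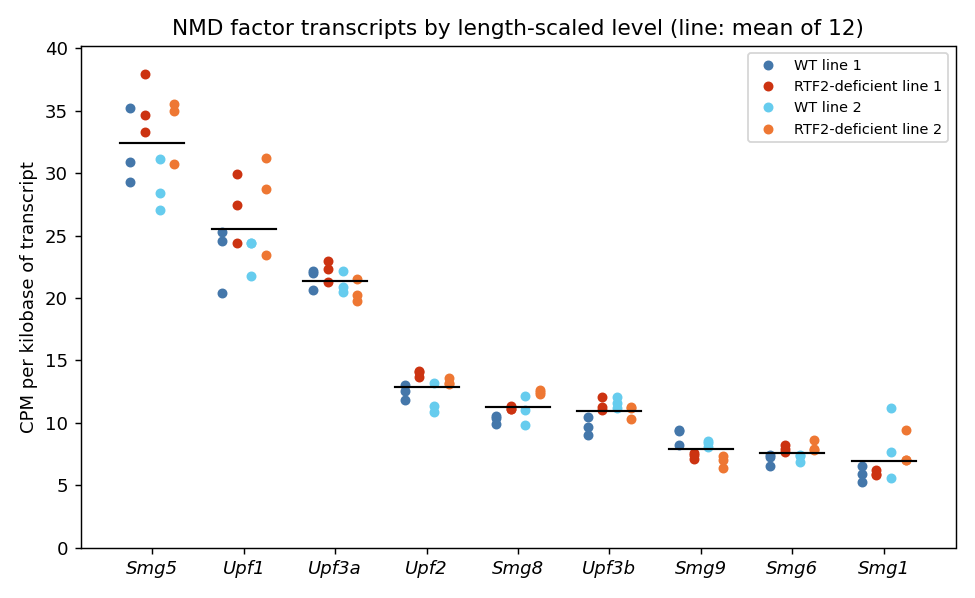
Level of each NMD factor in CPM per kilobase of its longest-coding GENCODE M21 transcript, 1 point a library, coloured by group, with the mean of the 12 libraries as a line and the axis starting at 0. The means fall from 32.4 for Smg5 to 6.96 for Smg1, with a gap between Upf3a (21.4) and Upf2 (12.9).

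Other factors of the reaction did not pass the threshold. A list of 25 of them held the release factors Etf1 and Gspt1, the exon junction complex, the cap-binding proteins, decapping and deadenylation factors and the 5′ to 3′ exonuclease Xrn1. edgeR called 0 of 25 over both lines, with log2 fold changes from -0.39 for the RNA helicase Mov10 to 0.28 for Magohb, 15 above 0 and a median of 0.05. An unadjusted p under 0.05 was reached by 4, where 28.5% of all genes reached it, all of them higher and named after their values were seen: Magohb (0.28), Eif4a3 (0.17) and Rnps1 (0.16), which belong to the exon junction complex or bind it, and Ddx6 (0.12), a decapping helicase. The other listed parts of the exon junction complex did not reach that level: Casc3 was at -0.02, Rbm8a at 0.06 and Magoh at 0.06. DESeq2, which called 18.9% of all genes, called Ddx6 and Eif4a3 higher. The limma voom fit with the group as a random block, which called 24.2%, called these and Magohb. The edgeR fit called Magohb without WT line 2 replicate 2 (0.36, adjusted p = 0.0378) and again when RTF2-deficient line 2 replicate 3 was left out (0.36, adjusted p = 0.0376).

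Transcripts that NMD is known to lower gave a similar count. Of a list of 13, which held the snoRNA host genes Gas5, Snhg1, Snhg12, Snhg15 and Zfas1, stress factors such as Atf4, Atf3 and Ddit3, and Gadd45a and Gadd45b, edgeR called 0 over both lines, and 0 had an unadjusted p under 0.05. DESeq2 and limma voom also called none of the 13. Their median was 0.11 and 8 of 13 were above 0, and 5 values lay below, with the widest spread at Atf3 (-0.35, 95% interval -1.35 to 0.65). Gas5 was at 0.18 (95% interval -0.01 to 0.36) and Atf4 at 0.11 (-0.04 to 0.26). The central part of all tested genes, between the 25th and 75th percentiles, ran from -0.18 to 0.13. With the interferon score as an added term, Gadd45a (0.41, adjusted p = 0.00585), Gadd45b (0.54, 0.0298) and Snhg12 (0.28, 0.0358) passed in edgeR, and the cap-binding factor Ncbp2 was lower (-0.27, 0.0364), in a fit that called 13.9% of all genes. Counts per gene do not show the share of each transcript that carries an early stop.

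**Figure D4:**
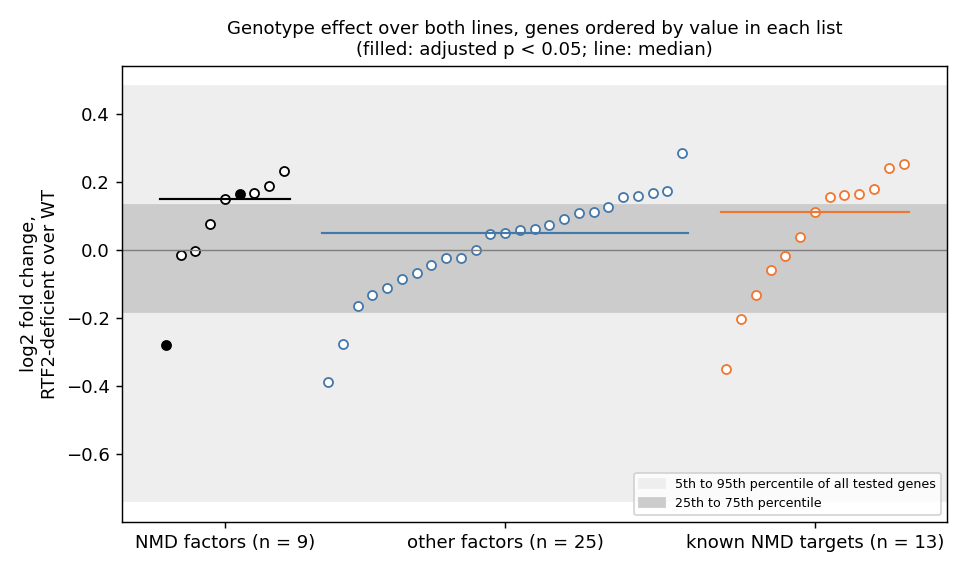
Log2 fold change over both lines, RTF2-deficient over WT, for the 9 NMD factors, 25 other factors of the reaction and 13 transcripts that NMD is known to lower, ordered by value within each list, with the list median as a line, filled points at an adjusted p under 0.05 and grey bands for the percentiles of all 14263 genes tested. Filled points occur only for Smg9 and Smg6, and all points of the 3 lists lie within the 5th to 95th percentile of all genes (-0.74 to 0.48).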

How the data were processed

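The authors deposited whole-number counts of reads per gene for 12 libraries by Entrez Gene identifier, not normalized. The study's methods describe Salmon and tximport on UCSC mm10 gene models, but HTSeq and mm10 stand in the submitters' processing notes, and the counting tool is not settled. Strand use and poly(A) selection: not given in the sources used here. The members are defined by gene name, but members, lists and tests were chosen with earlier results of these data known. RefSeq symbols (GRCm38) matched 24045 of 24100 identifiers, and exons and transcript lengths came from GENCODE M21.

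Genes passing filterByExpr were normalized by TMM and tested in R 4.3.3 with edgeR 4.0.16 (glmQLFit, glmQLFTest), with terms for line and genotype over all 12 libraries. Effects by line, their difference and the WT lines were contrasts of the 4 groups. A gene was called below 0.05 after Benjamini-Hochberg adjustment. The rule named all 9 members, Rtf2 and any called gene of the other lists, and 1 further gene that is not reported here. Within line 1, same-numbered libraries correlated at 0.430 to 0.625 and across the WT lines at 0.305 to 0.426; this pairing was read from the data, not the design. The fit was tested on simulated data and recovered 50 of 99 genes changed by 0.5 on the log2 scale and 82 of 100 changed by 1. It made 7 false calls among 139. Changes as small as those of the members were not simulated. Alternatives were RLE scaling, 2 filters, DESeq2 1.42.0, limma 3.58.1 voom, summed libraries, no line term, a replicate block and each library left out. An interferon term and fits of line 1, line 2 or the WT lines alone were chosen after seeing the data.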

Additional observations from a re-analysis of the deposited data

Results flagged for a closer look

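In 18 sets of 6 libraries (each of the 9 factors in WT and in RTF2-deficient MEFs), 1 library lay far from the others by Dixon's criterion. Smg1 was at 147.24 CPM in RTF2-deficient line 2 replicate 2, where the nearest of the other RTF2-deficient libraries was at 109.06 CPM, a gap of 0.676 of the whole range. Chance gives about 1 in 20 such sets. Without that library the log2 fold change of Smg1 was -0.08 over both lines (edgeR adjusted p = 0.803), against -0.02 with it, and -0.20 in line 2 (0.690).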

How the results depend on the processing

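Smg9 was lower at an adjusted p under 0.05 in all 12 fits with a library left out and in each of the 9 other alternatives except summed libraries. The count of members higher (1) moved with most choices. It was 5 with DESeq2 and 5 with limma voom, which had the group as a random block (estimated within-group correlation -0.148). It was 2 with RLE scaling, a 1 CPM filter or the interferon term (there Upf2 and Smg8, not Smg6). It was 0 without a filter, without the line term, with the replicate block or with summed libraries, where members lower was also 0. All genes called (1878, of which 711 higher) became 1227 without the line term, 2702 with DESeq2 (1297 higher), 3457 with voom (1546 higher) and 0 with summed libraries (4 samples; 2737 genes at an unadjusted p under 0.05). Other factors numbered 2 higher with DESeq2, 3 higher with voom and 1 lower with the interferon term, which also gave 3 NMD-lowered transcripts higher. In line 1 the genes called (456) were 852 with DESeq2, which called 1 member lower, and 4004 in line 1 alone with the replicate block (5 members higher, 1 lower), against 360 in line 1 alone without it. In line 2 (1776 genes) the line alone gave 962, and the 1 CPM filter and DESeq2 each called 1 member lower. DESeq2 gave 409 genes for the difference between lines (184), and 1 member higher between the WT lines, as did the 1 CPM filter; the WT lines alone gave 1258 genes, and 2507 with the replicate block, with no member called. In the fit over all groups the replicate block changed no other call on a member than that of Smg6 (adjusted p = 0.0585), and the ratio tests gave p = 0.25 and 0.8125 with it (64 exact arrangements). Values near 0 changed sign: Upf3a was 0.0027 with RLE, 0.0052 without a filter, 0.0025 with DESeq2 and 0.0017 with the interferon term, and Smg1 was 0.0097 with voom and 0.0967 with the interferon term. With each library left out, the genes called ranged from 1158 (without RTF2-deficient line 2 replicate 2) to 1974 over both lines, 192 to 480 in line 1, 813 to 2372 in line 2, 66 to 164 for the difference and 1260 to 2221 between the WT lines. Members higher ranged from 0 to 3 over both lines, 0 to 2 in line 2 (Upf2 and Smg8, without WT line 2 replicate 1) and 0 to 1 between the WT lines, and other factors higher from 0 to 1. Log2 fold changes ranged for Upf3a from -0.0232 to 0.0158 over both lines and -0.0027 to 0.0614 in line 1, and for Smg1 from -0.106 to 0.127 over both lines, -0.0563 to 0.0957 in line 1, -0.266 to 0.250 in line 2 and -0.289 to 0.220 for the difference; the log2 ratio of Smg6 to Smg5 ranged from -0.0895 to 0.0161. The cause of these shifts was not tested.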
